A study of Drosophila melanogaster with 6 samples.

Results

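The glutathione S-transferase (GST) genes of Drosophila melanogaster were examined in whole prepupae of a Sox14 mutant and its control strain. The family was taken as every gene with a probe set assigned to it alone whose symbol is Gst followed by D, E, O, S, T or Z and a number, which gave 34 genes of the 11982 measured. Of the 35 such symbols in the RefSeq annotation only GstE8 had no probe set of its own and was not analysed here. The letters stand for the delta (11 genes), epsilon (13), omega (3), sigma (1), theta (4) and zeta (2) classes.

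The animals of both groups were in the w1118 strain, which carries a mutation of the white eye colour gene, and were raised at the same temperature on standard food. The mutant group was homozygous for sox14L1, an allele of Sox14, whose protein is a transcription factor that binds DNA through an HMG box. The control group was w1118 without that allele. Whole bodies were taken at 0 h, just after pupariation, and each of the 3 arrays per group held RNA of 10 pooled prepupae, so that single animals and tissues are not resolved. The labels do not say whether the 3 pools of a group came from separate cultures, so p-values reflect only how far these pools spread.

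GSTs join the tripeptide glutathione to electrophilic compounds, which makes these more soluble and ready for export, and several also reduce peroxides or isomerise substrates. The delta and epsilon classes are large in insects, lie in tandem gene clusters and are known for the breakdown of insecticides and plant toxins and for responses to oxidative stress through the transcription factor CncC. The omega, theta, zeta and sigma classes also occur outside insects and include enzymes with defined metabolic roles. In flies, GST genes are known to be active in the midgut, fat body and Malpighian tubules.

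Values are log2 expression values made by RMA (robust multi-array average, which corrects background, equalises the arrays and summarises the probes of a set). Changes are mutant minus control on that log2 scale, with the standard error from limma, and a gene is called at an adjusted p under 0.05. The brightest probe set of each gene was used. The low range of an array reached up to the 90th percentile of its 100 AFFX-Dm control probe sets, 5.43 to 5.65. Values of different probe sets depend on their probes as well as on the RNA, so levels were compared between arrays and not between genes.

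Sox14 itself read 10.34, 10.67 and 10.73 on the mutant arrays and 11.40, 11.60 and 11.72 on the control arrays, and fell by 0.99 ± 0.13 (adjusted p = 0.00101). The sources used here do not place the lesion relative to this probe set. The first mutant array differed from the rest in its 18S rRNA control probe sets, with a mean of 12.18 (the other 5 arrays had 7.56 to 7.94), and in its 3′ minus 5′ difference for actin, 1.77 against 0.54 to 0.88. Arrays of the same genotype correlated at 0.993 to 0.996.

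Many of the GST genes were higher in the mutant. Of the 34, 16 rose, 3 fell and 15 were not called, whereas 11.3% of all genes rose, 13.4% fell and 24.7% were called in either direction. In percent of the family, 47.1% rose and 8.82% fell. Of the 14 members outside the delta and epsilon gene clusters, 2 rose and 2 fell, 14.3% each, with a median change of -0.04. These shares are near those over all genes. The median change was 0.34 in the family and -0.03 over all genes. Large rises were frequent: 9 members rose by more than 2-fold and 7 by more than 4-fold, against 3.62% and 1.24% of all genes. All 3 mutant arrays lay above all 3 control arrays for 19 members and below them for 6, where the shares over all genes were 18.3% and 24.5%. Together, the groups did not overlap for 25 of the 34 members and for 42.8% of all genes. Without the first mutant array 14 members rose and 3 fell. The members varied between replicates about as much as other genes did, with a median SD of 0.136 in the mutant and 0.132 in the control, against 0.120 and 0.135 over all genes.

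**Figure D1:**
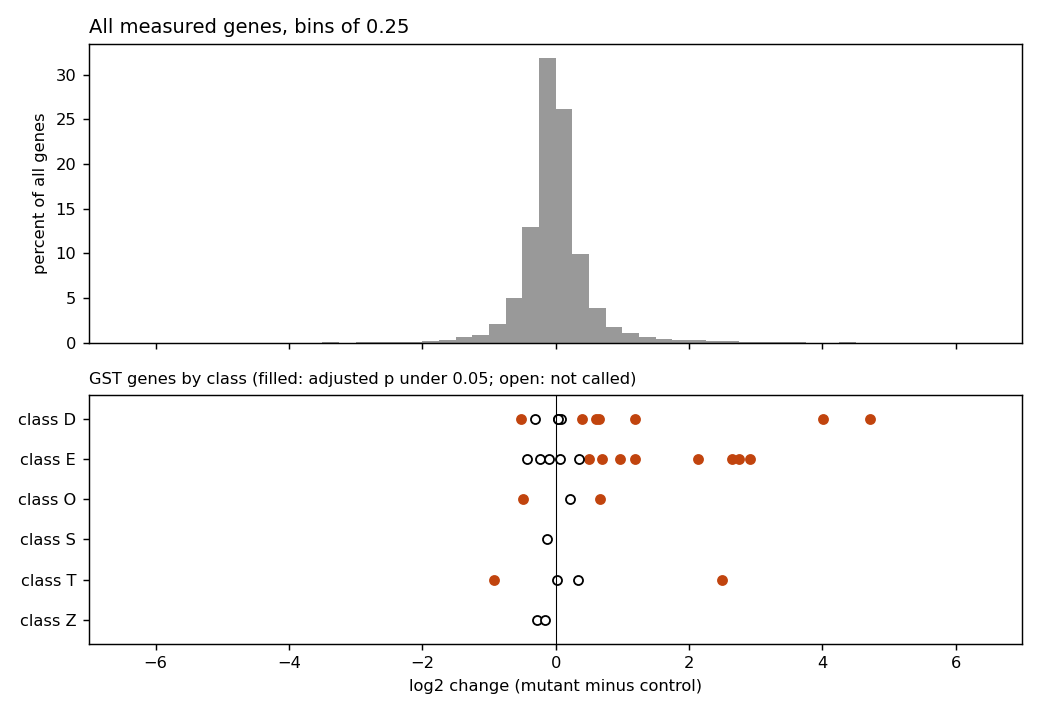
The upper panel shows the percent of all 11982 genes in bins of 0.25 of the log2 change, mutant minus control, and the lower panel each GST gene by class, filled where it was called. Members reach from -0.93 to 4.71, and the 7 beyond 4-fold belong to the D, E and T classes.

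By class, calls fell out as follows. In the delta class 6 of 11 rose and 1 fell, with a median change of 0.39, and in the epsilon class 8 of 13 rose, with a median of 0.70 and no call in the lower direction (2 lower at an unadjusted p under 0.05 in limma). The omega class had 1 rise and 1 fall among 3 genes, and the theta class 1 of each among 4. The sigma gene and both zeta genes were not called in limma, and at an unadjusted p under 0.05 only GstZ1 of these 3 was lower. These counts were not tested between classes. Over all genes 11.3% rose and 13.4% fell, so the counts in the small omega, sigma, theta and zeta classes say little.

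**Figure D2:**
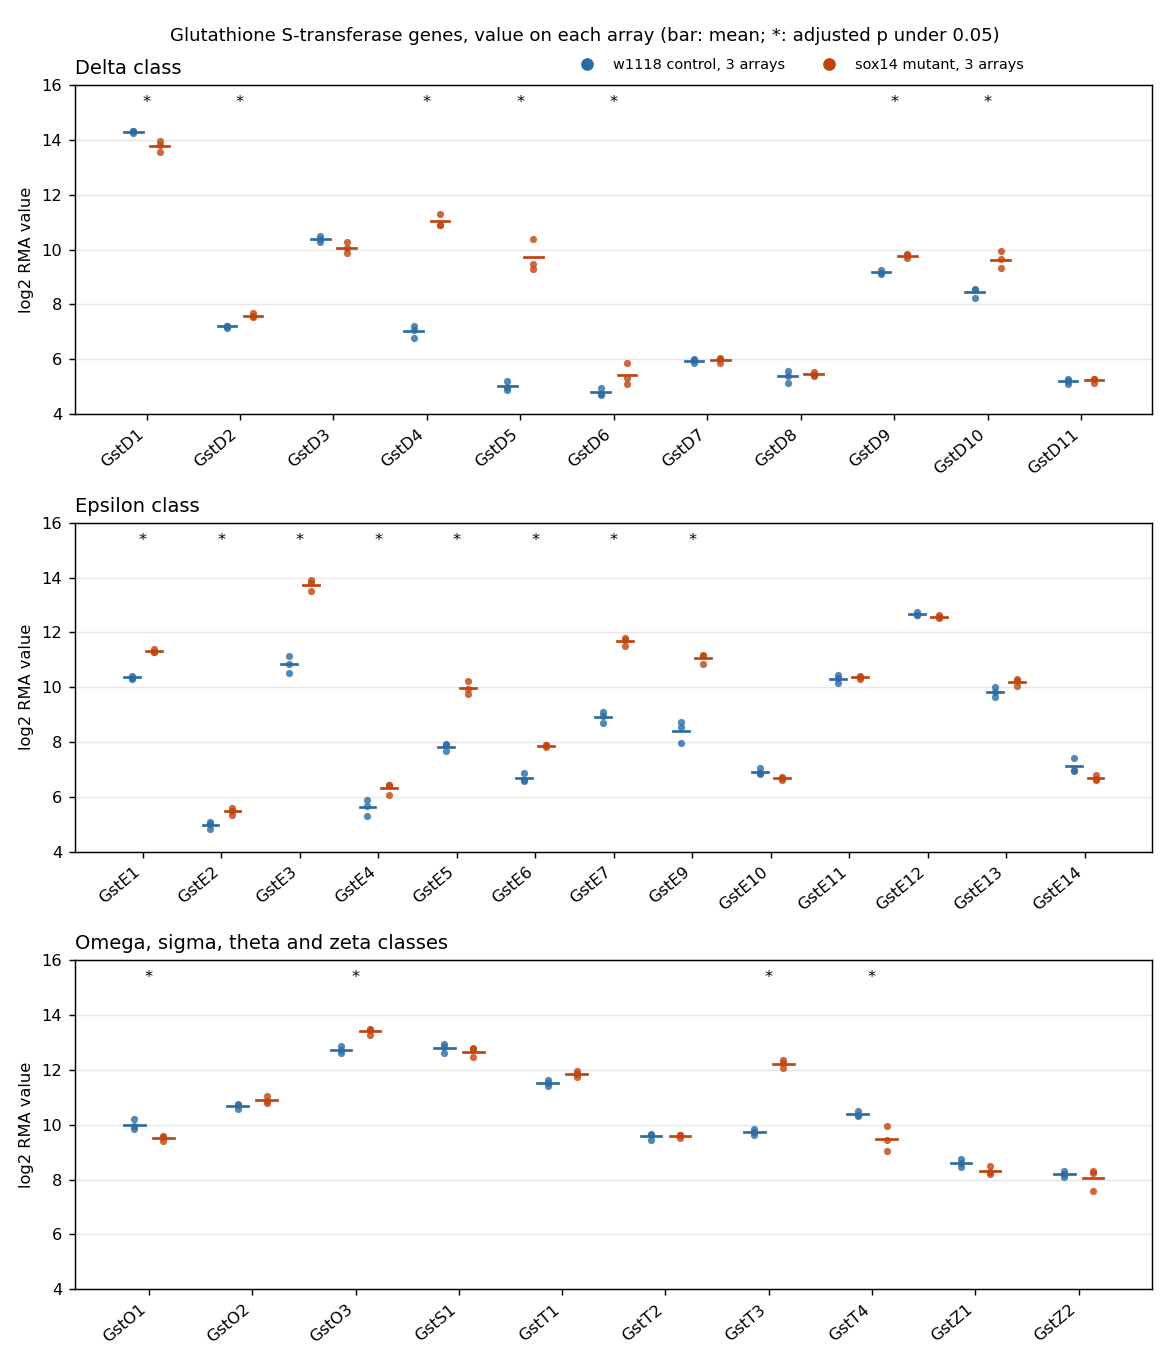
Each point is the log2 RMA value of 1 array, in blue for the 3 control arrays and in red for the 3 mutant arrays, with a bar at the mean and a star over genes with an adjusted p under 0.05. GstD4, GstD5, GstE3, GstE5, GstE7, GstE9 and GstT3 stand clear of their controls, while GstD1, GstO1 and GstT4 lie below them.

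The delta genes sit side by side on chromosome arm 3R, in the order GstD10, GstD9, GstD1, GstD2 to GstD8 and GstD11, with 1 other protein-coding gene, CG10035, between the last of them. The largest rises of the whole family were those of the neighbours GstD4 and GstD5, in the middle of the cluster. GstD5 read 9.30, 10.40 and 9.47 on the mutant arrays and 4.98, 4.87 and 5.20 on the control arrays. It rose by 4.71 ± 0.26 (adjusted p = 6.41e-06), and its groups were far apart. The estimate is 26.1-fold, with a 95% interval of 17.4 to 39.3. Its control values lay in the arrays' low range, where RMA compresses changes, so the rise may be understated, which was not tested.

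GstD4 read 10.91, 11.28 and 10.90 in the mutant and 7.06, 6.76 and 7.23 in the control. Its rise of 4.02 ± 0.15 (adjusted p = 9.95e-07) corresponds to 16.2-fold, with a 95% interval of 12.7 to 20.6, and its groups were far apart. GstD10, the first gene of the cluster, read 9.32, 9.93 and 9.64 in the mutant and 8.56, 8.25 and 8.51 in the control and rose by 1.19 ± 0.16 (adjusted p = 0.00110). Next to it, GstD9 rose by 0.60 ± 0.09 (adjusted p = 0.00207), with mutant arrays at 9.71, 9.84 and 9.79 and control arrays at 9.11, 9.27 and 9.16. The arrays of the 2 genotypes did not overlap for any of these 4 genes, as was so for 42.8% of all genes.

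GstD1 went the other way. This gene encodes a GST that acts on the insecticide DDT, and its promoter is widely used in flies as a reporter of oxidative stress and CncC activity. It read 13.55, 13.96 and 13.82 in the mutant and 14.33, 14.31 and 14.24 in the control, so that every mutant array lay below every control array. It fell by 0.52 ± 0.12 (adjusted p = 0.0152), which leaves 0.699 of the control level. Without the first control array it was no longer called (adjusted p = 0.0501), with a change of -0.50. Its neighbour GstD2 rose by 0.39 ± 0.09 (adjusted p = 0.0149), from a mean of 7.19 ± 0.04 to 7.58 ± 0.07, and lost its call without the second mutant array (adjusted p = 0.0711).

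The remaining delta genes changed little or read low. GstD3 gave -0.30 ± 0.12 and was not called (adjusted p = 0.126), with overlapping groups. GstD6 read 5.33, 5.88 and 5.11 in the mutant and 4.96, 4.72 and 4.70 in the control. It rose by 0.65 ± 0.19 (adjusted p = 0.0434), but its 3 control values and 2 of its 3 mutant values lay in the low range. Leaving out any array other than the third mutant array ended its call, with adjusted p-values of 0.0565 to 0.137. GstD7, GstD8 and GstD11 gave 0.03 ± 0.09, 0.08 ± 0.12 and 0.04 ± 0.09 without being called, their groups overlapping. GstD11 read in the low range on all 6 arrays and GstD8 on all 3 mutant and 2 control arrays, so changes of these transcripts may not be seen here.

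The second mutant array held the highest mutant value for 8 of the 11 delta genes, against 4 of the 13 epsilon genes. The same count was not made over all genes, and the classes were not tested against each other. Without the second mutant array GstD5 still gave 4.37, and 4 of the 11 delta genes rose.

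The epsilon genes form a cluster on 2R, in the order GstE10, GstE1 to GstE7, GstE8 and GstE9, and 4 further members, GstE11 to GstE14, lie elsewhere on that arm. Of the 9 measured genes of the cluster 8 rose, or 88.9% against 11.3% of all genes, with a median change of 1.19. GstE10, the first in the row, read -0.24 ± 0.10 without being called (adjusted p = 0.143). None of the 4 members outside the cluster was called in limma, which says little where 24.7% of all genes were called. At an unadjusted p under 0.05, 1 of those 4 was higher and 1 lower.

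GstE3 had the largest rise of the class. It read 13.92, 13.79 and 13.52 in the mutant and 11.15, 10.52 and 10.83 in the control, a change of 2.91 ± 0.17 (adjusted p = 8.75e-06) or 7.51-fold, with a 95% interval of 5.75 to 9.81. GstE7 read 11.72, 11.80 and 11.52 in the mutant and 9.11, 8.71 and 8.96 in the control and rose by 2.75 ± 0.13 (adjusted p = 2.78e-06). In both genes the lowest mutant array was more than 2 log2 units above the highest control array.

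GstE9 read 11.16, 11.15 and 10.84 in the mutant and 8.53, 7.97 and 8.72 in the control and rose by 2.65 ± 0.19 (adjusted p = 3.00e-05). A second probe set of this gene read between 4.26 and 4.38 on all 6 arrays, in the low range, and was not called (-0.06 ± 0.08, adjusted p = 0.669), so the mean of both probe sets changed by only 1.29. GstE5 read 10.22, 9.92 and 9.75 in the mutant and 7.88, 7.66 and 7.93 in the control, a rise of 2.14 ± 0.14 (adjusted p = 1.50e-05).

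Smaller rises were seen in the other genes of the cluster. GstE6 went from 6.60, 6.56 and 6.88 in the control to 7.81, 7.89 and 7.90 in the mutant, a rise of 1.19 ± 0.11 (adjusted p = 0.000118). GstE1, whose enzyme conjugates the lipid peroxidation product 4-hydroxynonenal, rose by 0.97 ± 0.09 (adjusted p = 0.000100), with mutant arrays at 11.30, 11.29 and 11.38 and control arrays at 10.42, 10.31 and 10.34. GstE4 rose by 0.70 ± 0.16 (adjusted p = 0.0176) and was not called without the first (adjusted p = 0.0636) or the second mutant array (0.0645). GstE2 rose by 0.50 ± 0.11 (adjusted p = 0.0136), with its 3 control values and 2 of its 3 mutant values in the low range. In each of these 4 genes all mutant arrays lay above all control arrays, as was so for 18.3% of all genes.

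**Figure D3:**
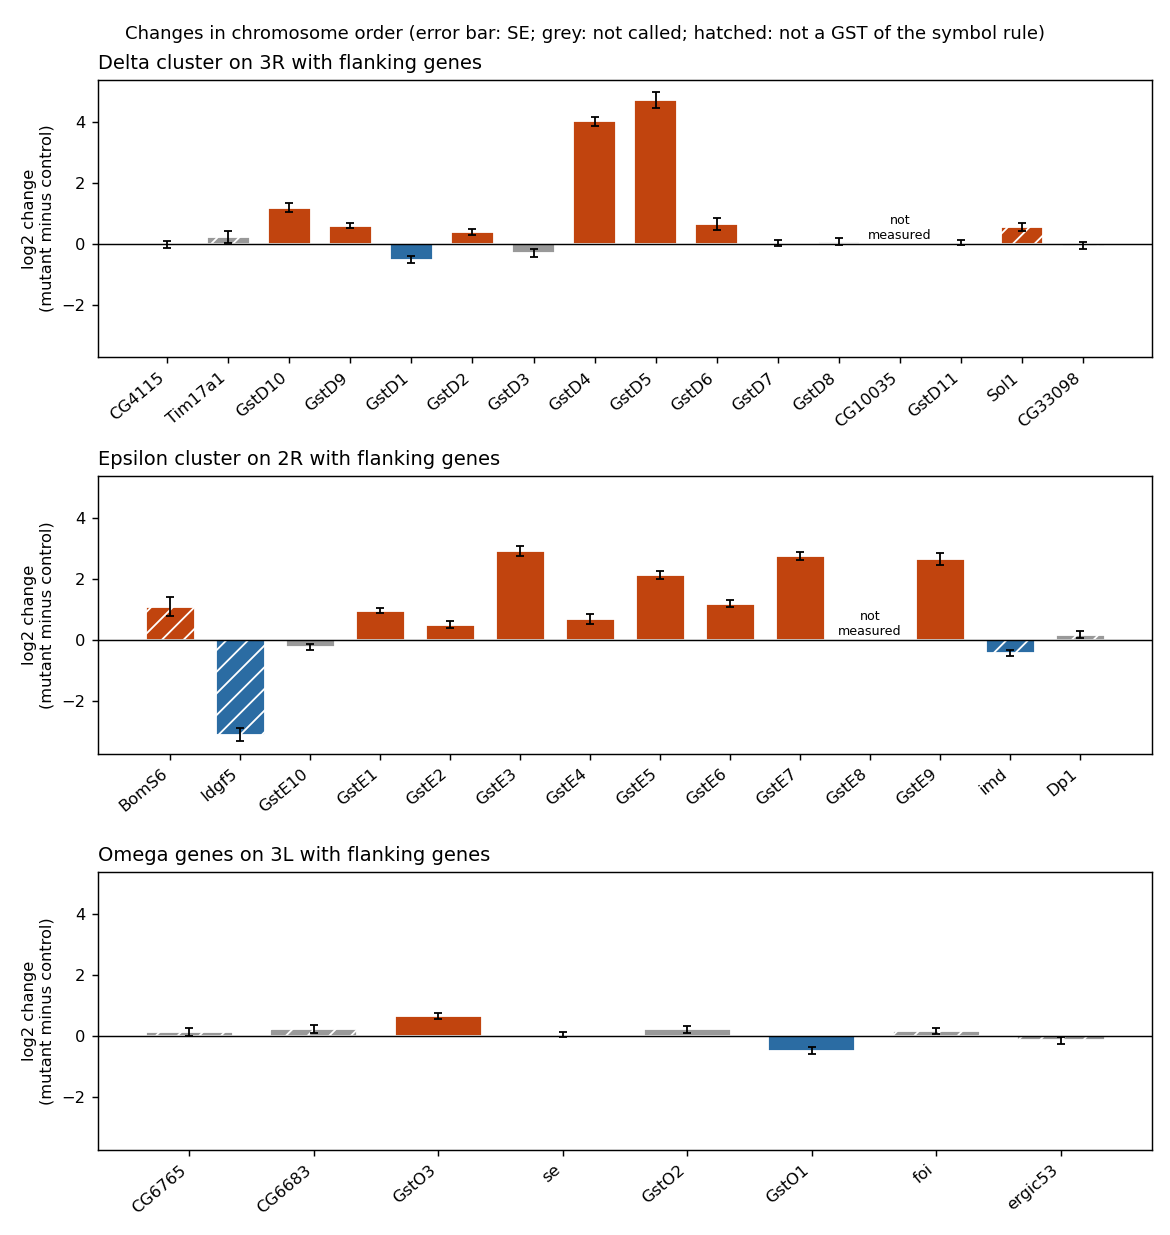
Bars give the log2 change, mutant minus control, with its SE, for the genes of the delta, epsilon and omega clusters and the nearest 2 protein-coding genes on each side, in chromosome order. Grey bars were not called, red bars rose, blue bars fell, and hatched bars are not GST genes by the symbol rule; GstD4 and GstD5 rise from among neighbours between -0.52 and 1.19, whereas the rises of the epsilon cluster run from GstE1 to GstE9.

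Of the epsilon genes outside the cluster, GstE14 (also named noppera-bo) is the one with a known part in ecdysteroid synthesis, where it acts on the handling of cholesterol in the prothoracic gland. It read 6.62, 6.78 and 6.66 in the mutant and 7.43, 6.98 and 6.96 in the control. All mutant arrays lay below the controls, and the change of -0.43 ± 0.14 was not called (adjusted p = 0.0602). It was called lower with the arrays centred on their medians (adjusted p = 0.0447), with array weights (0.0284) and with 1 value per gene as the unit of the fit (0.0490). The other 12 of the 15 alternative analyses left it uncalled. Without the first control array its change was -0.28 (adjusted p = 0.129). GstE13 read 0.35 ± 0.12 higher (adjusted p = 0.0812), GstE11 gave 0.06 ± 0.10 and GstE12 -0.10 ± 0.09, none of them called.

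For 22 pairs of adjacent measured members the difference between both genes was taken on each array and compared between genotypes. None of the 22 passed the threshold, since the smallest 2-sided exact permutation p that 3 against 3 arrays allow is 0.1, or 0.122 after adjustment over the pairs, and the steps between neighbours are given as values. From GstD3 to GstD4 the change increased by 4.32, and from GstD5 to GstD6 it decreased by 4.06. In the epsilon cluster the change increased by 2.41 from GstE2 to GstE3, decreased by 2.21 from there to GstE4 and increased by 1.56 from GstE6 to GstE7. The changes of GstE7 and GstE9 were 0.11 apart (exact p = 0.7), which with 3 against 3 arrays does not show that they were equal.

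Of the 12 measured genes that flank the 3 clusters, 2 on each side, 2 rose, 2 fell and 8 were not called, among them all 4 beside the omega cluster. This is 33.3% called, against 24.7% of all genes. Beside the delta cluster, Sol1 rose by 0.55 ± 0.13 (adjusted p = 0.0206). Beside the epsilon cluster, Idgf5, the gene of a secreted growth factor related to chitinases, fell by 3.10 ± 0.21 (adjusted p = 2.04e-05), and BomS6, which encodes an immune-induced Bomanin peptide, rose by 1.09 ± 0.31 (adjusted p = 0.0425). On the other side imd, the adaptor of the immune deficiency pathway, fell by 0.43 ± 0.10 (adjusted p = 0.0174).

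Sox14 also lies on 2R, as do all epsilon genes, GstS1, GstT1 and GstT2. For these 16 genes, of which 8 rose and none fell (2 lower at an unadjusted p under 0.05 in limma), the Sox14 allele and any other difference between the second chromosomes of the strains cannot be told apart. Of all genes on 2R, 13.8% rose. Among the 18 members on other chromosomes 8 rose and 3 fell, among them the 6 delta genes that rose on 3R, where 11.6% of all genes rose. For these 18 too, effects of the allele cannot be told apart from those of any other genetic difference between the groups.

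The theta class held 1 rise of more than 4-fold and 1 fall, both on the X chromosome. GstT3 read 12.36, 12.26 and 12.07 in the mutant and 9.85, 9.61 and 9.74 in the control and rose by 2.50 ± 0.11 (adjusted p = 2.15e-06), which is 5.65-fold with a 95% interval of 4.75 to 6.72. GstT4 read 9.03, 9.94 and 9.44 in the mutant and 10.52, 10.33 and 10.34 in the control and fell by 0.93 ± 0.20 (adjusted p = 0.0140), with the mutant arrays more scattered than the controls. The adjacent GstT1 and GstT2 on 2R gave 0.33 ± 0.10 (adjusted p = 0.0587) and 0.02 ± 0.09 (adjusted p = 0.927). For GstT1 all mutant arrays lay above the controls, and it was called with array weights (adjusted p = 0.0261), with a trended robust variance (0.0401) and with 1 value per gene (0.0496). The other 12 of the 15 alternative analyses left GstT1 uncalled. Without the second mutant array its change was 0.27 (adjusted p = 0.203).

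The omega genes, whose enzymes act as thiol transferases and dehydroascorbate reductases, lie together on 3L and moved apart. GstO3 read 13.26, 13.48 and 13.47 in the mutant and 12.86, 12.74 and 12.63 in the control and rose by 0.66 ± 0.10 (adjusted p = 0.00256). GstO1 read 9.58, 9.41 and 9.56 in the mutant and 9.84, 10.21 and 9.96 in the control and fell by 0.48 ± 0.12 (adjusted p = 0.0201), and without the second mutant array its change of -0.43 was not called (adjusted p = 0.0799). Between them, GstO2 was not called in its brighter probe set (0.22 ± 0.10, adjusted p = 0.193) but rose in its dimmer one by 0.57 ± 0.12 (adjusted p = 0.0138). The omega enzyme sepia, encoded by se in the same row, makes a precursor of the red drosopterin eye pigments and was not called (0.05 ± 0.09).

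The sigma and zeta genes were not called. GstS1, known from flight muscle and for its action on lipid peroxidation products, read 12.47, 12.79 and 12.75 in the mutant and 12.83, 12.95 and 12.61 in the control (-0.13 ± 0.13, adjusted p = 0.560). Its 95% interval ran from -0.42 to 0.16, and its probe set is of a type shared between transcripts. GstZ1 and GstZ2, whose class isomerises maleylacetoacetate in the breakdown of tyrosine, gave -0.28 ± 0.12 (adjusted p = 0.142) and -0.15 ± 0.18 (adjusted p = 0.636). GstZ2 read 7.59 on the first mutant array and 8.09 to 8.30 on the other 5, and without that array its change was 0.07.

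No measured gene of the pathway lists around the GSTs, which also cover tyrosine breakdown and drosopterin synthesis, was called higher. In 7 lists with 42 genes, of which 31 were measured, none was higher in limma (2 at an unadjusted p under 0.05) and 4 were lower, with changes between -0.66 and 0.38 and a median of -0.14. The falls make up 12.9% of the 31 genes, near the 13.4% of all genes that fell. Without the first mutant array 1 of the 31 was lower and 0 were higher. Gclc, which encodes the catalytic subunit of the rate-limiting enzyme of glutathione synthesis, fell by 0.29 ± 0.08 (adjusted p = 0.0409), and Gclm, its regulatory subunit, was not called (0.35 ± 0.16, adjusted p = 0.179). Mgstl, which encodes a microsomal GST unrelated in sequence to the family, fell by 0.42 ± 0.11 (adjusted p = 0.0252). The other 2 falls were in drosopterin synthesis, in pr (-0.66 ± 0.09, adjusted p = 0.00143) and DhpD (-0.34 ± 0.09, adjusted p = 0.0366).

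The 3 regulators of the CncC response were not called. cnc, the gene of CncC itself, read 11.06, 11.06 and 10.87 in the mutant and 11.05, 11.17 and 11.22 in the control (-0.15 ± 0.10, adjusted p = 0.346). Keap1, whose protein binds CncC and holds it in check, gave -0.09 ± 0.10 (adjusted p = 0.631) and maf-S, its partner on DNA, -0.18 ± 0.12 (adjusted p = 0.375). These are transcript levels only, and the probe sets of cnc and Keap1 are of a type shared between transcripts. None of the 3 measured exporters of glutathione conjugates (MRP, Mrp4, Mrp5) was called in limma. Nor was any of the 5 measured thioredoxin and peroxiredoxin genes or of the 4 measured genes of tyrosine breakdown. Of the latter, Hpd read in the low range on all arrays and hgo on 3 mutant and 1 control array. Mrp4 read there on 1 mutant and 3 control arrays, so changes of these 3 transcripts may not be seen here.

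**Figure D4:**
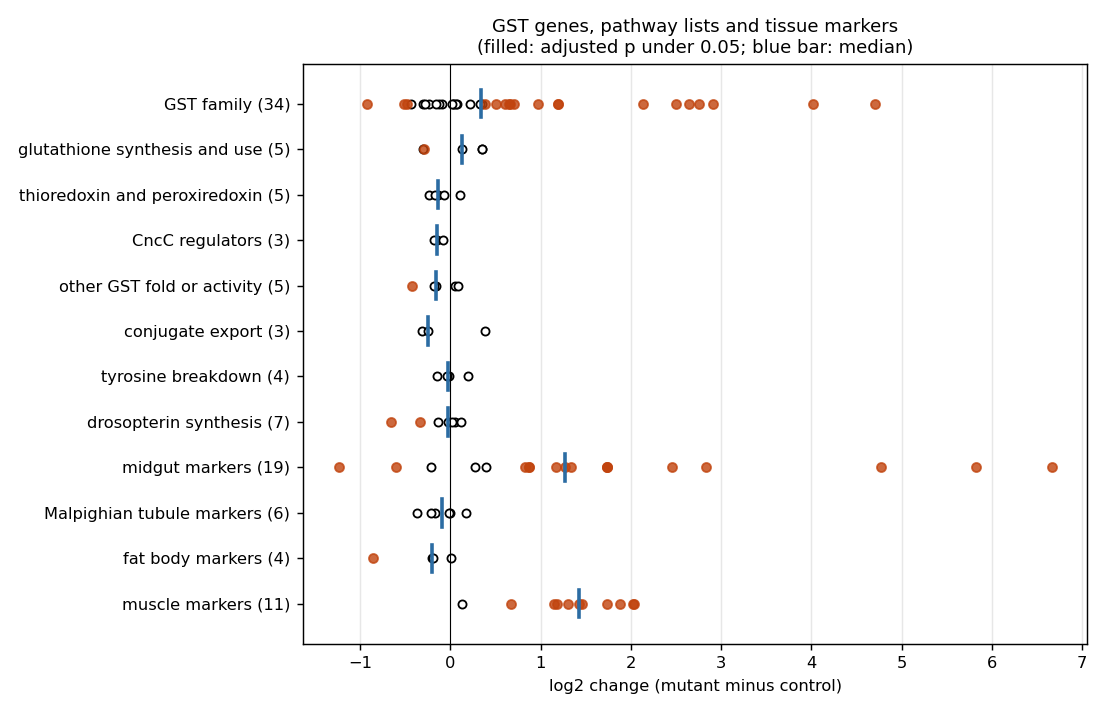
Each point is the log2 change, mutant minus control, of 1 gene, filled where the adjusted p was under 0.05, with a blue bar at the median of each list and the number of genes in brackets. The GST family extends to 4.71, while the 7 pathway lists stay between -0.66 and 0.38; midgut and muscle markers lie mostly to the right of 0.

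Many markers of midgut and muscle were higher in the mutant. The lists were chosen with earlier results of these data known, so their shares are descriptive only. Of 19 measured midgut enzyme genes 14 rose and 2 fell, with a median change of 1.27. These are 73.7% and 10.53% of the list, against 11.3% and 13.4% of all genes, so that the falls are near the share over all genes. The mean log2 level over the list was 11.24 to 11.41 on the mutant arrays and 9.51 to 9.72 on the control arrays. The 4 largest were the trypsin genes epsilonTry (6.66 ± 0.19) and betaTry (5.82 ± 0.17), the Jonah protease gene Jon44E (4.77 ± 0.23) and the maltase gene Mal-A1 (2.83 ± 0.15). Of 11 muscle genes 10 rose, 90.9% of the list, and none fell (0 also at an unadjusted p under 0.05 in limma), with a mean log2 level of 9.38 to 9.47 against 8.002 to 8.15. They were Act88F, bt, Tm2, Mlc1, Mlc2, Prm, Act87E, up, TpnC73F and sls, genes of actin, myosin, tropomyosin, troponin and titin-like proteins among them, with changes of 0.68 to 2.04. Without the first mutant array 14 midgut genes and 9 muscle genes rose. In whole animals more cells of a type and more RNA per cell cannot be told apart, and the part of midgut and muscle in the GST rises was not tested.

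No measured marker of the other tissues known for GST expression was called higher. Of 6 measured Malpighian tubule genes none was called in limma (0 higher and 1 lower at an unadjusted p under 0.05), with a mean log2 level of 7.92 to 7.97 in the mutant and 7.91 to 8.16 in the control. Of 4 measured fat body genes only Fbp2 was called, and it fell by 0.86 ± 0.11 (adjusted p = 0.000790), while the list read 14.74 to 14.80 in the mutant and 15.05 to 15.10 in the control. This is 25% of the list called, near the 24.7% of all genes. Since only 11.3% of all genes rose, the lack of rises in lists of 6 and 4 genes says little.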

How the data were processed

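Total RNA of whole prepupae was biotin-labelled for Affymetrix Drosophila Genome 2.0 arrays, per the labels. The authors deposited log2 values, for which the submitters' processing notes name RMA and Affymetrix Expression Console 1.1. For the array design no genome build is given in the sources used here, so coordinates are left out. Gene positions relative to each other and chromosome arms come from the RefSeq annotation of Release 6, in which all 34 members were matched by gene identifier.

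The file held 18952 probe sets, of which 183 are controls and were not tested, and the platform annotation assigns 13647 of the other 18769 to a single gene. Of the 36 single-gene probe sets of the members, GstE9 and GstO2 had 2 each, and the one with the highest mean was used. The 2-sided test between genotypes was limma's (version 3.58.1, lmFit and eBayes, R 4.3.3). P-values were adjusted by Benjamini-Hochberg across the 18769 probe sets, and 19.1% of these passed the threshold of 0.05. Adjusted p-values of genes are from this fit unless an alternative is named. Every member is named. Of each other list all called members are named, or the 4 with the largest change where over 12 genes were measured and, of the genes beside the clusters, those called. Genes outside the family that are named although they were not called were chosen after their values were seen. The members and lists were chosen with earlier results of these data known, and the low range was set after seeing the data. The number of arrays limits the precision. Listed genes that share all their probe sets with others or have none were not analysed here.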

Additional observations from a re-analysis of the deposited data

How the results depend on the processing

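Of the 19 called members, 12 stayed called in the same direction under all 15 alternatives that gave a value. Another 7 lost their call under at least 1 of them (GstD1, GstD2, GstD6, GstE2, GstE4, GstO1 and GstT4), with no change of sign. GstE2 and GstT4 lost it only at the stricter threshold of 0.01, whereas GstD6 lost it under 6 alternatives. GST rises numbered 13 after dropping the dimmest 40% of probe sets and 13 without the 5 members in the low range on all arrays of a group, where 29 members were left. At a threshold of 0.01 the members gave 12 rises and 0 falls (3 falls at 0.05), with 0 falls in each of the D, O and T classes, and the counts for all genes were 817 higher and 844 lower, and for probe sets 963 and 1000. Array weights gave 5 GST falls, with 1 in E and 1 in Z, and 2 rises in T. Median centring gave 1 fall in E, a trended robust variance 2 rises in T, and averaging the probe sets of each gene 1 fall in E and 2 rises in each of O and T. With arrays left out in turn, GST rises ranged from 13 to 16 and falls from 2 to 3, with falls of 0 to 1 in both D and O. The pathway lists then had 0 to 1 rises and 1 to 3 falls, and the midgut list 0 to 1 falls. The pathway lists had 2 falls with quantile normalisation and with specific probe sets only, and 1 at the threshold of 0.01. The midgut list had 0 falls at that threshold, the fat body list 2 with a trended robust variance and the muscle list 3 rises with specific probe sets only. That last setting leaves out genes whose probe sets are all of types shared between transcripts. Most of the muscle genes are left out by it, so its list counts cover fewer genes.

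Signs that turned were all of uncalled members, near 0 except for GstZ2 (-0.15 with all arrays). Median centring gave -0.0019 for GstD11, -0.010 for GstD7 and -0.025 for GstT2, and array weights -0.018 for GstD11 and -0.020 for GstD8. With arrays left out, the ranges were -0.0023 to 0.086 for GstD11, -0.015 to 0.082 for GstD7, -0.039 to 0.18 for GstD8, -0.013 to 0.13 for GstE11, -0.043 to 0.061 for GstT2 and -0.28 to 0.074 for GstZ2. The cause of these differences was not tested.

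With the replicate number as a block, GST rises stayed at 16 and falls at 3, and the pathway lists had 2 falls. Deviations of same-numbered arrays correlated at 0.17, -0.10 and -0.02, and 2 of 6 arrays correlated best with their own number, so the numbers were not taken as pairs.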
